A study of Mus musculus with 8 samples.

Results

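The prostanoid synthases and receptors of peritoneal macrophages were followed in 10 genes of the 47643 in the deposited tables. They were the cyclooxygenases Ptgs1 and Ptgs2, the terminal synthases Ptges, Hpgds, Ptgis and Tbxas1, the receptors Ptger2, Ptger4 and Ptgir, and the degrading enzyme Hpgd. The 10 genes were taken by symbol, and the rule used no measured value. The list was drawn up with earlier results of these data known, however. A share among these genes set beside that over all genes is therefore a description and no test. RNA was measured by QuantSeq, a method that sequences the 3′ end of each messenger RNA, in 8 libraries. In 4 of them, called MΦ+FV-Casp8+Dimerizer, macrophages (MΦ) of C57 BL/6 mice shared a transwell with NIH 3T3 FV-hCasp8 cells, mouse fibroblasts that carry human caspase-8 fused to a dimerizer domain and that die by apoptosis once the dimerizer joins the caspase molecules. The other 4, called MΦ+Dimerizer, came from macrophages that received the dimerizer with no fibroblasts. According to the study, macrophages and fibroblasts were kept together overnight before the dimerizer was added. Both groups received 10 nM B/B Homodimerizer, and RNA was taken 48 h later. The membrane between the cells had pores of 5 µm. The FV-hCasp8 lines of the study were grown from single clones, the macrophages were the peritoneal cells that stayed attached after washing, and the sources used here give no age for the mice. No library of macrophages beside living fibroblasts was analysed here, so an effect of fibroblasts being present and an effect of their death cannot be told apart.

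Prostanoids are short-lived lipid signals. A phospholipase frees arachidonic acid from membranes, and cyclooxygenase turns it into prostaglandin H2, with Ptgs1 encoding the form that most cells keep at a steady level and Ptgs2 the form that inflammatory stimuli switch on. Terminal synthases then make prostaglandin E2 (Ptges), prostaglandin D2 (Hpgds), prostacyclin (Ptgis) or thromboxane (Tbxas1), which act through G protein-coupled receptors and end with oxidation by 15-hydroxyprostaglandin dehydrogenase (Hpgd). Resident macrophages of the mouse peritoneum are known as a rich source of prostacyclin, thromboxane and prostaglandin E2. Prostaglandin E2 is also a known part of the response of macrophages to dying cells, and the comparison shows how the genes that make and sense it stood in both cultures.

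The genomic starts of both cyclooxygenase genes are shown first, because these genes went in opposite directions. The sequences are those of RefSeq on GRCm38.p6, from 250 bases before to 30 bases after the annotated start of each gene, 280 bases on the + strand, at chr1:150099781-150100060 for Ptgs2 and at chr2:36230176-36230455 for Ptgs1. Capitals mark matches to 4 letter strings that were searched on both strands. These were TATAAA, the core of a TATA box, CACGTG, an E-box, TGACG, the core of a cyclic AMP response element, and GGGCGG, a GC box.
Ptgs2: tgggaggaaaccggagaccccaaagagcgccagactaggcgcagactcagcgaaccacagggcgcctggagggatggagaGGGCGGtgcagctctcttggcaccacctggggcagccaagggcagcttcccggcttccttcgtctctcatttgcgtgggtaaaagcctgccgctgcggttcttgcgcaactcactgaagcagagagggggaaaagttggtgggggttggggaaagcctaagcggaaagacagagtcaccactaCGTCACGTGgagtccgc
Ptgs1: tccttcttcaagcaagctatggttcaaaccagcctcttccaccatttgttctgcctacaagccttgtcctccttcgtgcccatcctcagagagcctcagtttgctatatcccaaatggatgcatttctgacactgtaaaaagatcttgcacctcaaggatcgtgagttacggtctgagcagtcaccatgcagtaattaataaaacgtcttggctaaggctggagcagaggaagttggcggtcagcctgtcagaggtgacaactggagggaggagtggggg
Ptgs2 held a GGGCGG match 170 bases before its start and, downstream of it, a TGACG match on the minus strand that begins 13 bases after the start and runs into a CACGTG match that begins 16 bases after it. Ptgs1 held none of the 4 strings. Of all 300-base windows of this kind, 32851 in number and reaching 50 bases past the start, 13.6% held TATAAA, 7.15% CACGTG, 20.8% TGACG and 35.7% GGGCGG. A promoter entry matched 9 of the 10 genes. Among the 9, TATAAA was found in Hpgd and Tbxas1, CACGTG and TGACG in Ptgs2, and GGGCGG in Hpgd, Ptger4, Ptges, Ptgir and Ptgs2. The base composition also differed, with 59.3% G and C in the window of Ptgs2 and 50.7% in that of Ptgs1. These matches describe letters and not the binding of a factor.

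All 10 genes had a mean of at least 10 normalized counts over the 8 libraries, the level required for the test. A normalized count is a number of reads divided by the size factor of its library. In MΦ+FV-Casp8+Dimerizer, 3 of the 10 genes rose (Ptgs1, Hpgds and Hpgd), 5 fell (Ptgs2, Ptgis, Tbxas1, Ptger4 and Ptgir) and 2 did not pass the test (Ptges and Ptger2). The test was limma on log2(normalized count + 1) with p values adjusted by the Benjamini-Hochberg method over 12029 genes, of which 28.7% passed at 0.05, 15.0% as higher and 13.7% as lower. The values of both groups did not overlap for 8 of the 10 genes, which was the case for 29.4% of all tested genes. The median log2 fold change of the 10 genes was -0.20 and the median of its size 0.52, against 0.01 and 0.22 over all tested genes. The same numbers rose and fell with edgeR, which called 29.0% of all genes, and with DESeq2, which called 27.7%. In RNA of a whole culture, fewer cells of a type and less RNA per cell cannot be told apart.

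**Figure D1:**
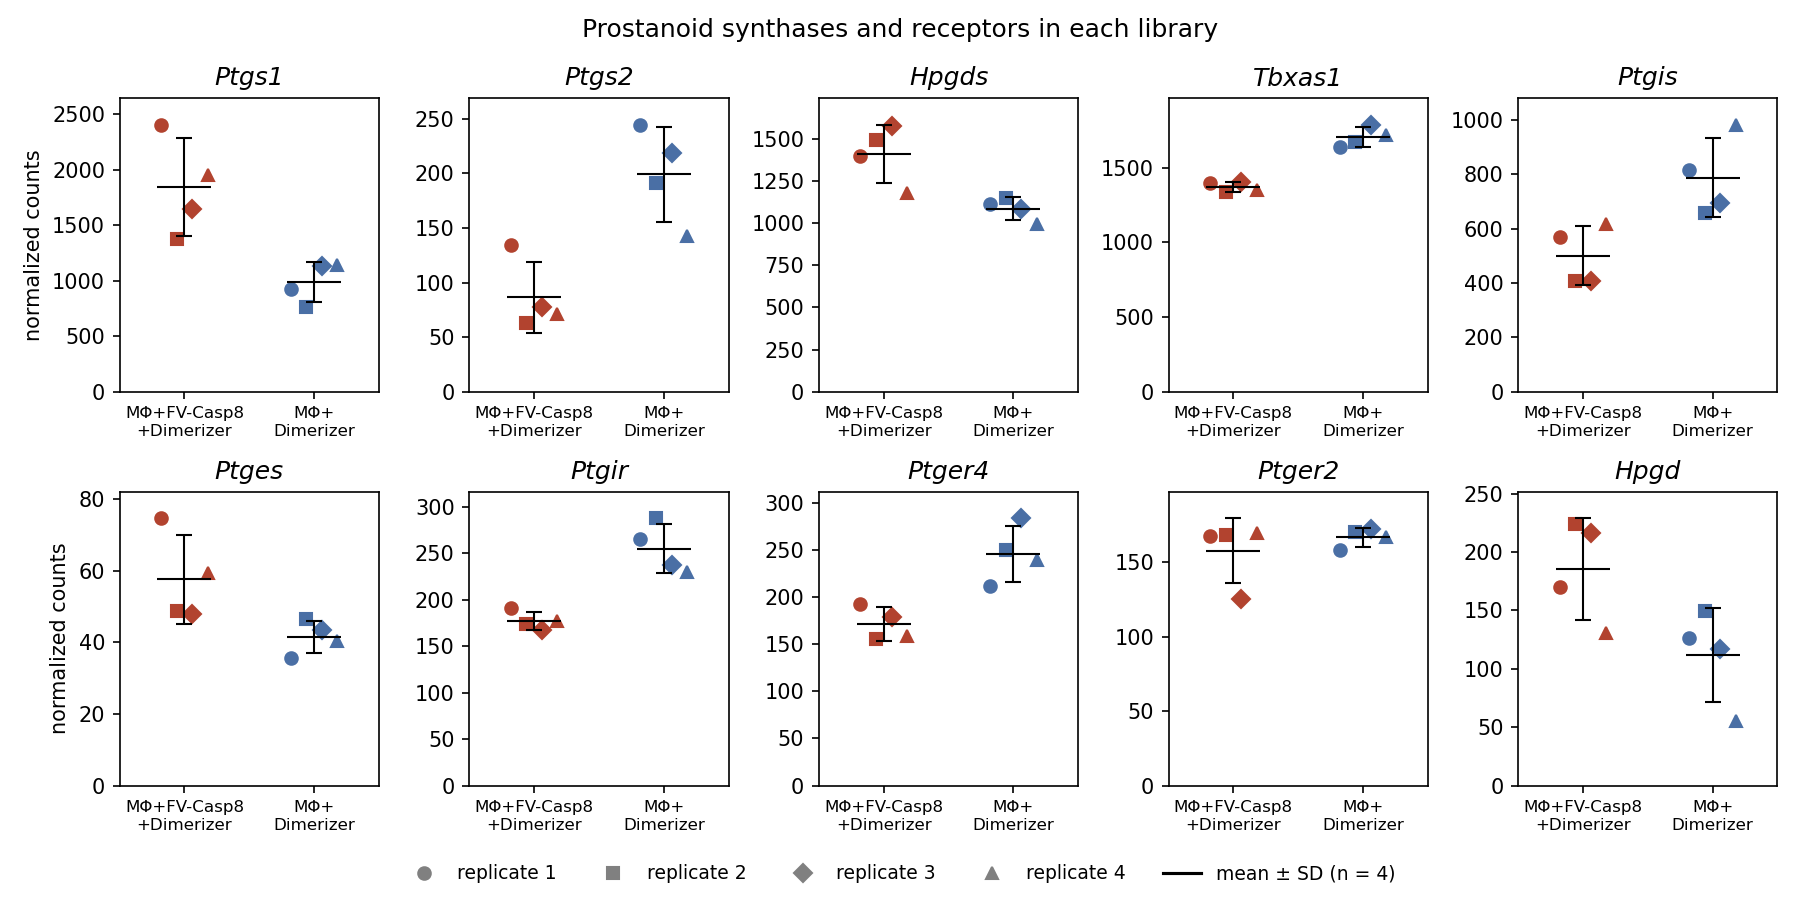
Normalized counts of the 10 prostanoid genes in each library, with MΦ+FV-Casp8+Dimerizer on the left and MΦ+Dimerizer on the right of each panel. Symbols are replicates, and the lines give the mean ± SD of 4 libraries. The groups are apart for every gene except Ptger2 and Hpgd.

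Ptgs1 and Ptgs2 encode the enzymes of the first committed step, and their transcripts went apart. Ptgs1 (chromosome 2, 36230426 to 36252272, + strand, GRCm38) had 2406, 1379, 1651 and 1950.1 normalized counts in MΦ+FV-Casp8+Dimerizer replicates 1 to 4, against 922, 767, 1132 and 1141 in MΦ+Dimerizer. Every co-culture library lay above every library with dimerizer alone. Ptgs1 averaged 1846 ± 440.0 in MΦ+FV-Casp8+Dimerizer and 991 ± 180.0 in MΦ+Dimerizer (SD, n = 4 each), which is 0.89 as a log2 fold change (95% interval 0.54 to 1.23, standard error 0.16), or 1.85-fold, with an adjusted p of 0.00104 from limma. It passed under all 16 alternative settings, with log2 fold changes of 0.75 to 1.02.

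Ptgs2 (chromosome 1, 150100031 to 150108227, + strand) had 134, 63.1, 77.3 and 71.5 normalized counts in MΦ+FV-Casp8+Dimerizer replicates 1 to 4. In MΦ+Dimerizer it had 245, 191, 219 and 142. Replicate 1 of the co-culture stood above the other 3 of its group, and replicate 4 of the dimerizer-alone group stood below the others of its own, so that only 8.12 normalized counts separated the groups. Ptgs2 averaged 86.6 ± 32.4 in MΦ+FV-Casp8+Dimerizer and 199 ± 43.7 in MΦ+Dimerizer (SD, n = 4 each). The log2 fold change was -1.23 (95% interval -1.70 to -0.75, standard error 0.22, limma adjusted p = 0.000997), the largest in size among the 10 genes. Between 76 and 117 reads per co-culture library and 145 to 236 reads per dimerizer-alone library stood behind these values.

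A ratio within a library does not depend on its size factor. Ptgs2 took 5.29, 4.38, 4.47 and 3.54% of the reads of both cyclooxygenases in the MΦ+FV-Casp8+Dimerizer libraries, against 21.0, 19.9, 16.2 and 11.1% in the MΦ+Dimerizer libraries. The shares did not overlap, and the exact 95% binomial intervals of the single libraries spanned 2.90 to 6.31% in the co-culture and 9.45 to 23.9% with dimerizer alone. These intervals cover counting error only. The share is compared here between libraries and says nothing of the amounts of the enzymes, and it is given as a description with no test.

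**Figure D2:**
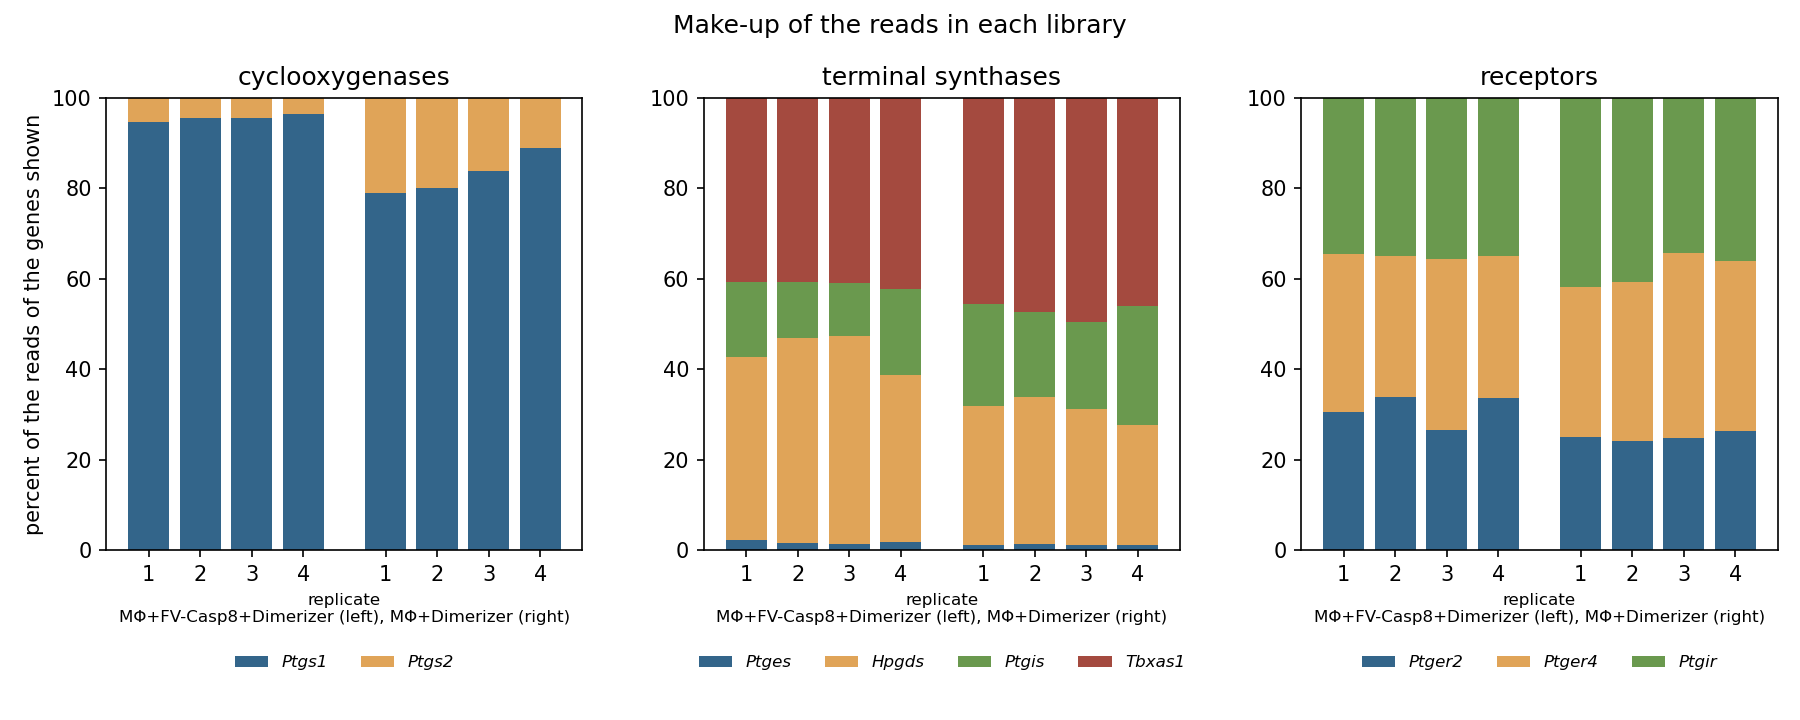
Percent of the reads of the genes shown that each gene took in each library, for the cyclooxygenases, the terminal synthases and the receptors. Bars on the left of each panel are the MΦ+FV-Casp8+Dimerizer libraries and bars on the right the MΦ+Dimerizer libraries. The share of Ptgs2 is 3.54 to 5.29% in the co-culture and 11.1 to 21.0% with dimerizer alone.

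Markers of other cells that are known to express cyclooxygenases were also followed. The summed level of 5 neutrophil markers was 1020.3 to 1750.3 normalized counts in MΦ+FV-Casp8+Dimerizer and 2053 to 5233 in MΦ+Dimerizer, and 2 of the 3 tested fell. Mmp8 made up most of the sum, with means of 813 in the co-culture and 2745 with dimerizer alone, while S100a8, with means of 332 in the co-culture and 276 with dimerizer alone, did not pass. None of these neutrophil markers was at 0, and their part in the lower Ptgs2 was not tested. Of the fibroblast markers, 6 of the 8 tested fell too, as did the 3 tested mesothelial markers. The fibroblast sum was 2877 to 4329 in the co-culture and 6855 to 10426 with dimerizer alone. The part of fibroblasts and mesothelium in the lower Ptgs2 was not tested either. Platelets are known for Ptgs1 and thromboxane synthase. The sum of 7 platelet markers was 44.8 to 132 in the co-culture and 50.0 to 70.9 with dimerizer alone, with overlap. Of the 2 tested, Ppbp rose, with means of 60.4 in the co-culture and 11.3 with dimerizer alone. Treml1, with means of 28.3 in the co-culture and 39.3 with dimerizer alone, did not pass. The part of platelets in the values of Ptgs1 and Tbxas1 was not tested.

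The terminal synthases decide which prostanoid is made, and they also moved in both directions. Hpgds, the hematopoietic prostaglandin D synthase (chromosome 6, 65117293 to 65144908, - strand), had 1395, 1489.9, 1577 and 1177 normalized counts in MΦ+FV-Casp8+Dimerizer, against 1113, 1151, 1079.6 and 993 in MΦ+Dimerizer. The co-culture was higher throughout, although its replicate 4 was only 26.1 normalized counts above the highest library of the other group. Hpgds averaged 1409.7 ± 172 in MΦ+FV-Casp8+Dimerizer and 1084 ± 67.5 in MΦ+Dimerizer (SD, n = 4 each), and the log2 fold change was 0.37 (standard error 0.09, 95% interval 0.18 to 0.57, limma adjusted p = 0.008). Mast cells are a known source of Hpgds in the peritoneum. The sum of 10 mast cell markers ran from 572 to 1570.4 in the co-culture and from 667 to 3943 with dimerizer alone, with overlap, and of the 9 tested none rose and 2 fell (Gata2 and Tpsab1). No mast cell marker was at 0. The part of mast cells in the higher Hpgds was not tested.

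Tbxas1, thromboxane A synthase (chromosome 6, 38875404 to 39084585, + strand), varied little within a group. It had 1401, 1337, 1405 and 1349.9 normalized counts in MΦ+FV-Casp8+Dimerizer and 1641, 1674, 1789 and 1723 in MΦ+Dimerizer. All co-culture libraries were lower, and the coefficient of variation was 2.54% in the co-culture and 3.77% with dimerizer alone, where the medians over all tested genes were 11.9% in the co-culture and 11.8% with dimerizer alone. Tbxas1 averaged 1373 ± 34.9 in MΦ+FV-Casp8+Dimerizer and 1707 ± 64.3 in MΦ+Dimerizer (SD, n = 4 each). The log2 fold change, -0.31 (standard error 0.06, 95% interval -0.45 to -0.18, limma adjusted p = 0.00231), was larger than the spread, although it was the smallest in size among the 8 genes that passed. The gene lies across Hipk2 on the opposite strand, a gene with a mean of 1086 normalized counts, but both share 0 exon bases.

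Ptgis, prostacyclin synthase (chromosome 2, 167191805 to 167240604, - strand), had 569, 408, 407 and 616 normalized counts in MΦ+FV-Casp8+Dimerizer, against 815, 657, 695 and 982 in MΦ+Dimerizer. Replicates 1 and 4 were the higher in both groups, and the highest co-culture library stayed 40.9 normalized counts below the lowest of the other group. Ptgis averaged 499.7 ± 108 in MΦ+FV-Casp8+Dimerizer and 787 ± 146 in MΦ+Dimerizer (SD, n = 4 each), and the log2 fold change was -0.66 (standard error 0.15, 95% interval -0.99 to -0.33, limma adjusted p = 0.00536). Prostacyclin synthase is also known from fibroblasts, mesothelium and vessel walls. Some markers of these cells fell as well, where 13.7% of all tested genes fell. The sum of 10 fibroblast markers was 2877 to 4329 in the co-culture and 6855 to 10426 with dimerizer alone. Of the 8 tested, 6 fell, with Col1a2 and Sparc the most abundant, while Col3a1 and Thy1 did not pass. The sum of 7 mesothelial markers was 59.3 to 105 in the co-culture and 154 to 219 with dimerizer alone, and the 3 tested fell. The sums of 5 endothelial markers overlapped, with 18.2 to 45.9 in the co-culture and 38.3 to 65.7 with dimerizer alone. Of the 2 tested, Vwf fell and Kdr did not pass, and Emcn was at 0 in all libraries. No fibroblast or mesothelial marker was at 0. The part of these cells in the lower Ptgis was not tested.

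Ptges, the inducible prostaglandin E synthase (chromosome 2, 30889471 to 30929863, - strand), had 74.7, 48.8, 47.8 and 59.3 normalized counts in MΦ+FV-Casp8+Dimerizer, against 35.7, 46.4, 43.5 and 40.3 in MΦ+Dimerizer. The groups did not overlap, but they were only 1.38 normalized counts apart, and in these libraries 1 read was worth 0.674 to 1.37 normalized counts. Ptges averaged 57.7 ± 12.5 in MΦ+FV-Casp8+Dimerizer and 41.5 ± 4.59 in MΦ+Dimerizer (SD, n = 4 each), and the log2 fold change of 0.45 (standard error 0.18, 95% interval 0.05 to 0.84) did not pass, with an adjusted p of 0.0858 from limma and of 0.0696 to 0.225 over the 16 alternative settings. With 26 to 88 reads per library, Ptges had the fewest reads among the 10 genes.

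Within each library, the make-up of the reads of the 4 terminal synthases differed between the groups. Hpgds took 36.8 to 45.9% in MΦ+FV-Casp8+Dimerizer and 26.6 to 32.6% in MΦ+Dimerizer. Tbxas1 took 40.7 to 42.2% in MΦ+FV-Casp8+Dimerizer and 45.5 to 49.6% in MΦ+Dimerizer. Ptges took 1.39 to 2.17% in MΦ+FV-Casp8+Dimerizer and 0.991 to 1.32% in MΦ+Dimerizer. The shares of these 3 genes did not overlap between the groups, while those of Ptgis did, with 11.8 to 19.2% in the co-culture and 18.6 to 26.3% with dimerizer alone. As above, these are descriptions with no test.

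The receptors Ptger4, Ptgir and Ptger2 signal through stimulatory G proteins and cyclic AMP. Ptger4 encodes EP4, a receptor for prostaglandin E2 (chromosome 15, 5206661 to 5244187, - strand), and had 193, 155, 179 and 158 normalized counts in MΦ+FV-Casp8+Dimerizer, against 212, 250.2, 283 and 239 in MΦ+Dimerizer. Every co-culture library was lower, with a gap of 18.7 normalized counts. Ptger4 averaged 171 ± 17.7 in MΦ+FV-Casp8+Dimerizer and 246 ± 29.7 in MΦ+Dimerizer (SD, n = 4 each), and the log2 fold change was -0.52 (standard error 0.11, 95% interval -0.76 to -0.27, limma adjusted p = 0.00407). Of its 6648 exon bases, 1015 overlap Gm15937 (mean 12.8 normalized counts) and 82 overlap Ttc33 (mean 294), both on the opposite strand. The study names a forward-stranded QuantSeq pipeline for the mapping, but the sources used here do not state whether the counting used strand. It is therefore not known whether reads over these bases were counted for Ptger4, for the other gene or for neither.

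Ptgir, the prostacyclin receptor (chromosome 7, 16906490 to 16910905, + strand), had 191, 174, 168 and 177 normalized counts in MΦ+FV-Casp8+Dimerizer, against 265, 288, 238 and 230.0 in MΦ+Dimerizer. The co-culture libraries lay close together and all below the others, with a gap of 39.3 normalized counts. Ptgir averaged 178 ± 9.61 in MΦ+FV-Casp8+Dimerizer and 255 ± 26.4 in MΦ+Dimerizer (SD, n = 4 each), and the log2 fold change was -0.52 (standard error 0.10, 95% interval -0.73 to -0.30, limma adjusted p = 0.00167). The receptor and the synthase of prostacyclin thus both fell.

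Ptger2 encodes EP2, the other receptor of this group for prostaglandin E2 (chromosome 14, 44988195 to 45003820, + strand). It had 168, 168, 125 and 169.9 normalized counts in MΦ+FV-Casp8+Dimerizer, against 158, 170.3, 172 and 167 in MΦ+Dimerizer. Apart from replicate 3 of the co-culture, all libraries lay between 158 and 172, and the groups overlapped. Ptger2 averaged 158 ± 21.8 in MΦ+FV-Casp8+Dimerizer and 167 ± 6.28 in MΦ+Dimerizer (SD, n = 4 each). The log2 fold change of -0.09 (standard error 0.12, limma adjusted p = 0.606) did not pass, its 95% interval of -0.34 to 0.16 left room for a decrease or an increase, and without replicate 3 of the co-culture the value was 0.02. Of the reads of the 3 receptors, Ptger2 took 26.5 to 33.8% in the co-culture and 24.0 to 26.3% with dimerizer alone, and the shares of Ptger4 and Ptgir overlapped between the groups.

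Hpgd, whose product oxidizes prostaglandin E2 to a form of low activity (chromosome 8, 56294585 to 56321043, + strand), had 170.0, 224, 217 and 131 normalized counts in MΦ+FV-Casp8+Dimerizer. In MΦ+Dimerizer it had 126, 149.6, 117 and 55.0. The groups overlapped, and replicate 4 was the lowest of either group. Hpgd averaged 185 ± 43.5 in MΦ+FV-Casp8+Dimerizer and 112 ± 40.4 in MΦ+Dimerizer (SD, n = 4 each), and the log2 fold change of 0.78 (standard error 0.26, 95% interval 0.21 to 1.35) had an adjusted p of 0.0405 from limma. The call was lost on leaving out any of 6 of the 8 libraries. The log2 fold change was then 0.81, 0.68 and 0.70 without co-culture replicates 1, 2 and 3 (adjusted p = 0.0592, 0.109 and 0.106), and 0.87, 0.83 and 0.47 without dimerizer-alone replicates 1, 3 and 4 (adjusted p = 0.0504, 0.0569 and 0.0740, limma). Mast cell markers were highest in replicate 4 of both groups, with sums of 1570.4 normalized counts in the co-culture and 3943 with dimerizer alone, and their part in the low Hpgd of these libraries was not tested.

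**Figure D3:**
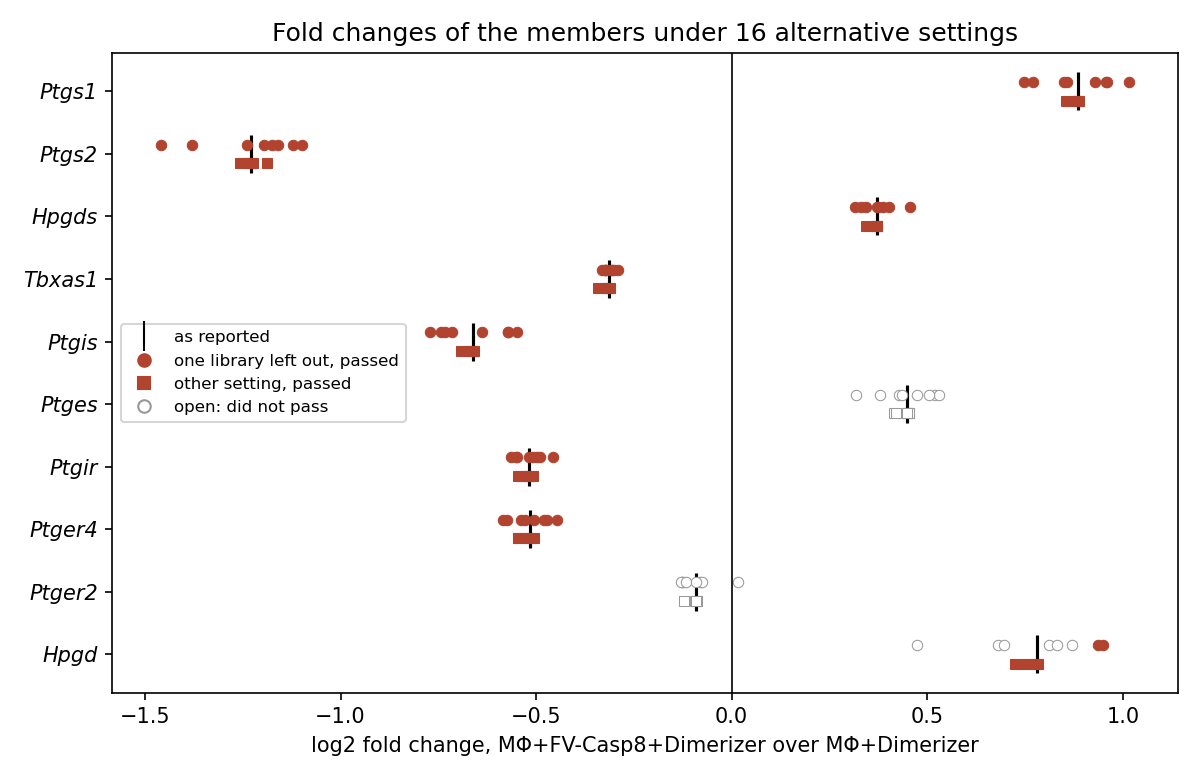
Log2 fold change of MΦ+FV-Casp8+Dimerizer over MΦ+Dimerizer for the 10 genes as reported (black line), with 1 library left out (circles) and under the 8 other settings (squares), where filled symbols passed the test. The 7 genes other than Hpgd that passed stayed filled and on their side of 0, while Ptges and Ptger2 did not pass under any setting.

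A further 18 genes of the pathway were followed, of which 11 reached the level for the test. Of these 11, 2 rose, 0 fell and 9 did not pass, a share of higher genes near the 15.0% over all tested genes, of which 13.7% fell. At an unadjusted p under 0.05 the count of lower genes was also 0 with limma and DESeq2 and was 1 with edgeR. The median log2 fold change of the 11 genes was 0.12, against 0.01 over all tested genes. Fam213b, which encodes a prostamide and prostaglandin F synthase, had 280.2, 318, 268 and 278 normalized counts in MΦ+FV-Casp8+Dimerizer, against 100.3, 115, 131 and 115 in MΦ+Dimerizer. The lowest co-culture library was far above the highest of the other group. Fam213b averaged 286 ± 22.2 in MΦ+FV-Casp8+Dimerizer and 115 ± 12.4 in MΦ+Dimerizer (SD, n = 4 each), and the log2 fold change was 1.31 (standard error 0.11, 95% interval 1.08 to 1.54, limma adjusted p = 2.18e-06), or 2.48-fold, the largest in size among the 21 tested genes of the pathway.

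Pla2g4a, the cytosolic phospholipase A2 that frees arachidonic acid, had 529, 425, 443 and 432 normalized counts in MΦ+FV-Casp8+Dimerizer, against 337, 346, 409 and 367 in MΦ+Dimerizer. The groups did not overlap. Pla2g4a averaged 457 ± 48.6 in MΦ+FV-Casp8+Dimerizer and 365 ± 32.3 in MΦ+Dimerizer (SD, n = 4 each), and the log2 fold change was 0.32 (standard error 0.10, limma adjusted p = 0.021). The value was 0.25 without co-culture replicate 1, and 0.29 and 0.30 without dimerizer-alone replicates 1 and 2, none of which passed (adjusted p = 0.0597, 0.0673 and 0.0516, limma). Among the 9 genes that did not pass were the constitutive prostaglandin E synthases Ptges2 and Ptges3, with log2 fold changes of -0.36 and 0.18, the transporters Slco2a1, which takes prostaglandins up, and Abcc4, which exports them, with -0.26 and 0.16, and the reductases Ptgr1 and Ptgr2, which act on the products of Hpgd, with 0.29 and 0.03. The aldose reductase Akr1b3 and the carbonyl reductase Cbr1 had 0.04 and 0.12.

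**Figure D4:**
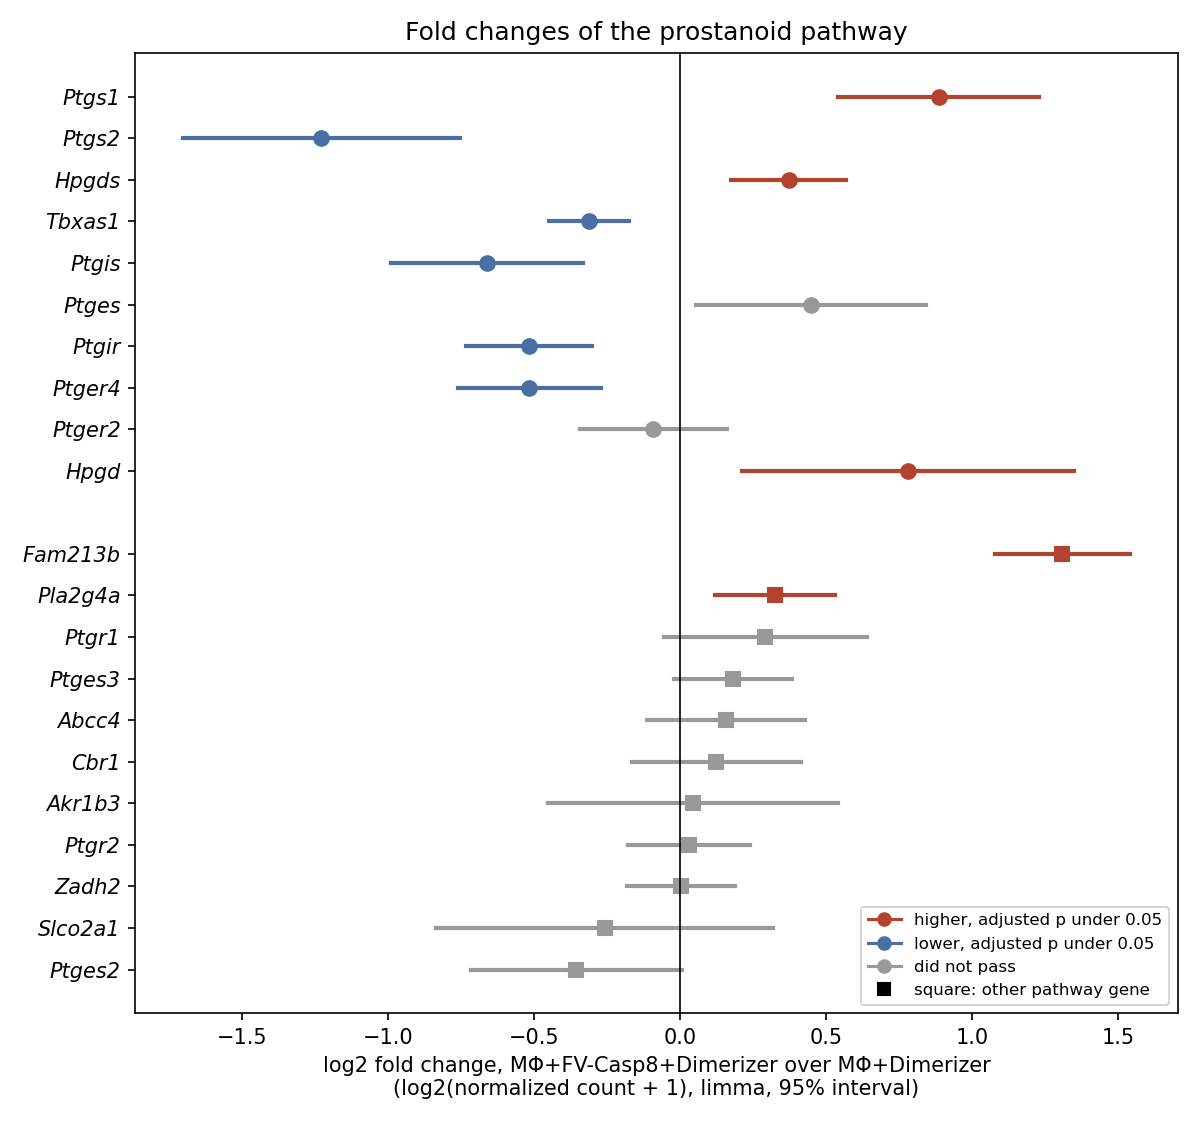
Log2 fold change of MΦ+FV-Casp8+Dimerizer over MΦ+Dimerizer with its 95% interval for the 10 genes (circles) and for the 11 other tested genes of the pathway (squares), red for higher and blue for lower at an adjusted p under 0.05 and grey for genes that did not pass. Values run from -1.23 for Ptgs2 to 1.31 for Fam213b.

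The remaining 7 of the 18 genes were under the level for the test, most of them receptors. The lipocalin-type synthase Ptgds and the prostaglandin D2 receptors Ptgdr and Ptgdr2 had 0 reads in all 8 libraries, which allows up to 2.02 to 4.12 normalized counts per library at a limit of 3 reads. The transcript of the D synthase Hpgds was thus read in every library, while those of the receptors for its product were not detectable at this depth. The prostaglandin E2 receptor Ptger1 had 0 reads in MΦ+FV-Casp8+Dimerizer and 3 reads in MΦ+Dimerizer, Ptger3 had 14 reads in the co-culture and 11 with dimerizer alone, and the thromboxane receptor Tbxa2r had 11 in the co-culture and 4 with dimerizer alone. The prostaglandin F receptor Ptgfr had 14 reads over the co-culture libraries, at least 1 in each, and 0 with dimerizer alone. The pooled Ptgfr value of the co-culture was 3.60 times the limit of 3 reads over the dimerizer-alone group. This ratio leaves out the counting error of the 14 reads and the spread between libraries, and the level was too low for the test.

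Reads per library ranged from 6954153 to 11506556 in MΦ+FV-Casp8+Dimerizer and from 5904441 to 8932884 in MΦ+Dimerizer, and libraries of a group differed by more than sampling noise. The sum of 10 macrophage markers was 228749 to 256594 in the co-culture and 203507 to 210914 with dimerizer alone. Lyz2 made up most of it, with means of 198256 in the co-culture and 163684 with dimerizer alone, and did not pass. Cd68, the next in level, had means of 9762 in the co-culture and 11573 with dimerizer alone and did not pass. Of the others, 4 were higher (Adgre1, Itgam, Fcgr1 and Timd4) and 2 lower (Mertk and Gata6), and no macrophage marker was at 0. B cell markers had sums of 539.9 to 1597 in the co-culture and 179 to 782 with dimerizer alone, and 1 of 4 tested rose. Dendritic cell markers had sums of 319 to 944 in the co-culture and 385 to 610.1 with dimerizer alone, and 2 of 3 tested fell. Of the eosinophil markers, 1 of 3 tested fell and Epx and Prg2 were at 0, and of the T and NK cell markers 0 of 2 passed.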

How the data were processed

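RNA of mouse peritoneal macrophages from 8 libraries, 4 per group, was analysed. According to the study, replicates were macrophages of individual animals. The labels gave the groups and the replicate numbers. Reads were mapped by the authors to GRCm38 with a Lexogen pipeline for forward-stranded QuantSeq (FWD) with molecular identifiers, and STAR, HTSeq and DESeq2 are named in the submitters' processing notes. Their annotation was not given in the sources used here. Deposited values were normalized counts, a signal equal to whole reads divided by a size factor: 100% of the values were whole within 0.001 reads. Symbols and coordinates came from GENCODE M21 on GRCm38, which matched 99.1% of the 47643 genes, and promoters from RefSeq.

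For 12029 genes with a mean of at least 10, log2(normalized count + 1) was fitted with limma 3.58.1 (R 4.3.3) and a variance trend. This scale understates changes of low genes. The Benjamini-Hochberg threshold was 0.05. On the recovered reads, edgeR 4.0.16 (quasi-likelihood, TMM) called 3487 genes and DESeq2 1.42.0 called 3326, against 3452 with limma. The script was tested on simulated data. Further alternatives were a pseudocount of 0.5 or 5, every gene kept, a mean above 30, upper-quartile scaling, a replicate block and each library left out. The median log2 fold change over all genes was 0.01, and -0.02 with upper-quartile scaling. All 10 genes and the 18 others of the pathway could be named. Genes and lists were chosen with earlier results of these data known, and p values measure the spread between these libraries.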

Additional observations from a re-analysis of the deposited data

Results flagged for a closer look

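Among 42 sets of 4 values, 1 for each tested pathway gene and group, 4 held a library far from the other 3 by Dixon's test at the 95% level, where chance gives about 1 in 20. Ptger2 had 125 normalized counts in MΦ+FV-Casp8+Dimerizer replicate 3, and the others of the group had 168 to 169.9. Pla2g4a had 529 normalized counts in MΦ+FV-Casp8+Dimerizer replicate 1, and the others 425 to 443. Abcc4 had 144 normalized counts in MΦ+FV-Casp8+Dimerizer replicate 4, with 168 to 171 in the others, and 184 in MΦ+Dimerizer replicate 2, with 132 to 140.2 in the others.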

How the results depend on the processing

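Over 16 alternatives, 5 of the 10 genes fell in every one, and 3 rose except in 6 of the 8 fits with 1 library left out, where 2 rose and Hpgd was the gene lost (a range of 2 to 3 over the 8 fits). Of the values of the 10 genes under the alternatives, 154 kept their side of the threshold, 6 did not and none of those that passed changed sign. Of the other pathway genes, 2 rose as reported, 1 to 2 with 1 library left out (1 without co-culture replicate 1 or dimerizer-alone replicate 1, where Pla2g4a was lost), 3 of 15 tested with no filter and 4 with a replicate block. Slco2a1 was under the mean above 30 and has no value there. Replicates with the same number deviated together in part (correlations of 0.0884, 0.341, 0.293 and 0.194 over genes). Every library correlated best with its own number. The library names of both groups also share their leading numbers, and the study describes replicates as individual animals. The labels do not state whether equal numbers mean the same animal, so the main test had no block and pairing remains possible. The block added Ptges3 (adjusted p = 0.0480) and Ptgr1 (adjusted p = 0.0176, limma), left the 10 genes at 3 higher and 5 lower, and gave 2293 higher and 2118 lower genes in all, against 1806 and 1646. Ptgr1 also passed without dimerizer-alone replicate 2 (log2 fold change 0.44, adjusted p = 0.0311, limma). Upper-quartile scaling gave 1604 higher and 1805 lower genes. Ptges had 26 to 88 reads per library, and 7 of the 18 other genes were under a mean of 10, where precision is low.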
